A study of Mus musculus with 8 samples.

Results

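S phase and DNA replication genes were examined in Sca1+Lin- bone marrow cells of wild-type and Sca1-MALT1 transgenic mice. The set was 35 named genes that license, open and copy DNA or feed the process, taken by gene symbol from the array's annotation, with the brightest probe set standing for each gene. Of these, 34 had at least 1 probe set with a single listed gene, out of 18193 genes on the array, and together they had 76 probe sets. Chaf1a, which encodes the large subunit of a histone chaperone, was not analysed here.

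The cells were sorted from bone marrow as Sca1+Lin-, that is, carrying the surface protein Sca1 and lacking markers of mature lineages, which enriches for blood stem cells and early progenitors. The 3 control samples were wild type and the 5 others carried the Sca1-MALT1 transgene, whose name joins the Sca1 promoter to MALT1, a protease and scaffold that links antigen receptors to NF-kB. RNA was amplified before labelling and hybridised to 1-colour Affymetrix arrays. The labels give no strain, age, sex, treatment or number of animals per sample, so each p-value measures only how these samples spread, and that spread may be technical. All values are log2 signals, and differences are Sca1-MALT1 minus wild type. In bulk samples, fewer cycling cells and less of a transcript per cell cannot be told apart.

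Replication is prepared in G1, when the origin recognition complex, Cdc6 and Cdt1 load the ring-shaped Mcm2 to Mcm7 helicase onto DNA. At the start of S phase the E2F transcription factors, released from the retinoblastoma protein by cyclin-dependent kinases, raise most of these genes, and Cdc45 and the GINS complex switch the helicase on. In bone marrow, most long-lived stem cells rest outside the cycle, while multipotent progenitors, large pre-B cells, erythroid precursors and early myeloid precursors divide often.

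Of 29 members found in the RefSeq table of promoters (build GRCm38.p6), 11 held an E2F-type motif in the window from 250 bases before to 50 bases after a start site. The motif was searched on both strands as TTTCCCGC, TTTCGCGC, TTTGCCGC or TTTGGCGC. Of 27025 genes in the table, 2.6% held it in at least 1 window, against 37.9% of the members and 6.25% of the 32 G2 and mitosis genes found there. By single windows the shares were 2.26% of 32851 and 32.4% of 34. Stretches upstream of the start site are shown for 5 members whose values are described below, as examples of where the motif lies in the origin, helicase and chromatin genes. Capitals mark the motif, read 5′ to 3′ along the gene's own strand, and a match is a description of the letters, not a site shown to bind E2F. The stretches lie at chr11:98907987-98908046 (plus strand, Cdc6), chr4:108579401-108579453 (plus, Orc1), chr8:75109330-75109389 (plus, Mcm5), chr1:128359782-128359841 (minus, Mcm6) and chr17:56304102-56304161 (plus, Uhrf1).
Cdc6: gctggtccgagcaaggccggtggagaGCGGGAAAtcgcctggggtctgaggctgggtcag
Orc1: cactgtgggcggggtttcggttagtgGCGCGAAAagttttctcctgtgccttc
Mcm5: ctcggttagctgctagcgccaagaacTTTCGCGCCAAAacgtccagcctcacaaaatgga
Mcm6: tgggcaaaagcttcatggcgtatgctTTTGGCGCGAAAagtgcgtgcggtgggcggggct
Uhrf1: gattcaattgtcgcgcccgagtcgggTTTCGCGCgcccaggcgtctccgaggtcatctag
In Mcm5 and Mcm6 the capitals run over 12 letters because a match on each strand overlaps there.

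No S phase gene passed the test between the genotypes. Of the 34 members, 0 had an adjusted p under 0.05 (limma, Benjamini-Hochberg over all 18193 genes), against 16 genes or 0.0879% of all genes. At an unadjusted p under 0.05, 1 member (2.94%) was counted, against 10.2% of all genes. It was Ccne1, which was higher, as were 5.69% of all genes by that rule, and 0 members were lower, against 4.49%. The groups did not overlap in that same member alone (2.94%), against 7.13% of all genes, 4.27% higher and 2.87% lower. The differences leaned downward: 28 of the 34 members were lower in Sca1-MALT1 and 6 were higher. Their median was -0.23, while 49.3% of all genes were lower and the median of all genes was 0.004. That count rested on a single array. Without wild-type replicate 1 the median was 0.019 and 16 of 34 members were lower, and without Sca1-MALT1 replicate 1 it was -0.082 with 23 lower.

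The intervals show what 3 and 5 arrays could resolve. The standard error of a member's difference had a median of 0.29 and ran from 0.14 to 0.51. For 21 of the 34 members the 95% interval lay within 1 log2 unit of 0 on both sides. For the other 13 it reached below -1, and for 0 it reached above 1.

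**Figure D1:**
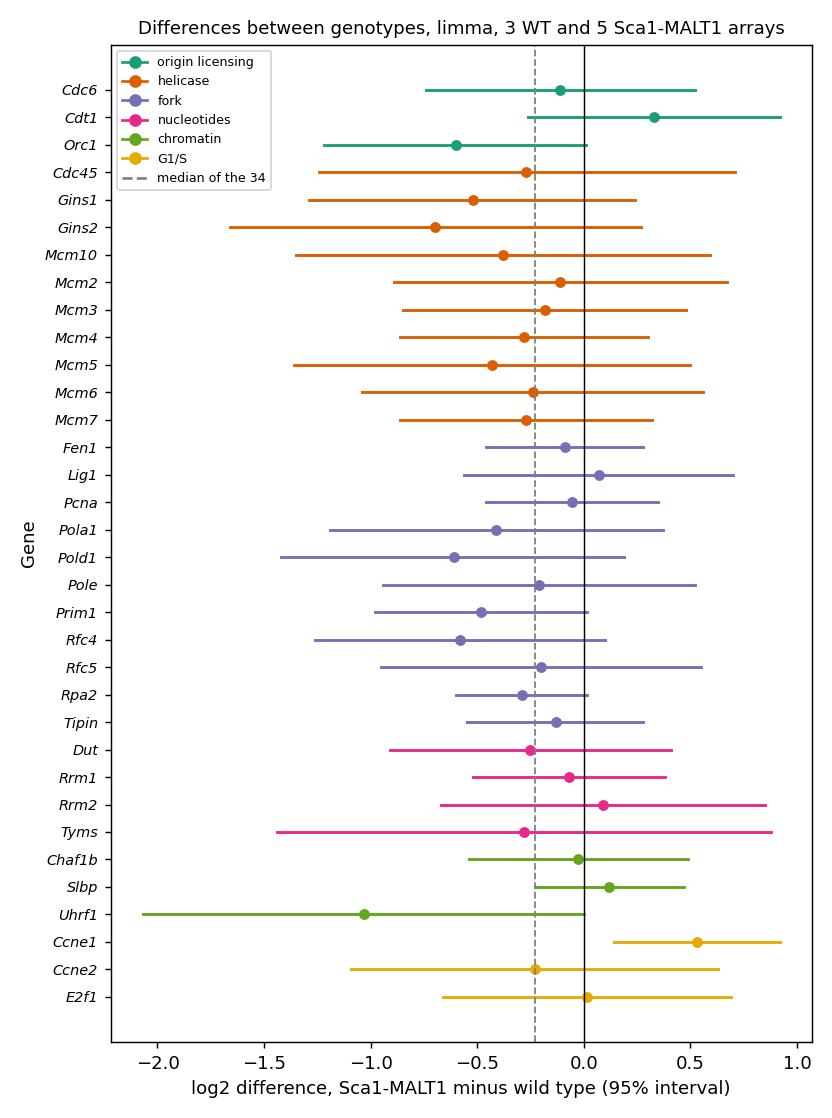
Log2 difference (Sca1-MALT1 minus wild type) of each of 34 S phase genes on the horizontal axis, with its 95% interval from limma, grouped by role; the dashed line is the median of the 34 at -0.23. All intervals span 0 except that of Ccne1, which runs from 0.14 to 0.92.

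Origin licensing genes went in both directions. Orc1, the largest subunit of the origin recognition complex, read 8.2, 7.8 and 7.74 in wild-type replicates 1 to 3 and 6.87, 7.71, 7.86, 7.31 and 6.81 in Sca1-MALT1 replicates 1 to 5. Replicates 1 and 5 were low, and replicate 3 lay among the wild-type arrays, so the groups overlapped. The difference was -0.6 (SE 0.27, adjusted p = 0.497). A dimmer probe set of Orc1 differed by -0.1.

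Cdc6, an ATPase that helps load the helicase, read 10.25, 9.78 and 9.59 in wild type and 9.0, 9.96, 9.84, 10.22 and 9.81 in Sca1-MALT1. Replicate 1 of Sca1-MALT1 stood below the other 7 arrays, and the difference was -0.11 (SE 0.27, adjusted p = 0.926). Cdt1, the partner of Cdc6 that is destroyed once S phase begins, read 12.62, 11.85 and 11.46 in wild type. In Sca1-MALT1 it read 12.2, 12.14, 12.09, 12.64 and 12.47, all above wild-type replicates 2 and 3 and 4 of them below replicate 1. Its difference was 0.33 (SE 0.26, adjusted p = 0.717), and that of its second probe set was 0.75 (unadjusted p = 0.0435, limma adjusted p over all probe sets 0.493).

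All 10 helicase genes were lower in Sca1-MALT1, with a median of -0.27 and differences from -0.7 to -0.11, and none passed. By the brightest probe set the groups overlapped in each of them. Mcm2 read 12.32, 11.28 and 10.75 in wild type and 10.89, 11.74, 11.16, 11.58 and 11.33 in Sca1-MALT1, a difference of -0.11 (SE 0.34, adjusted p = 0.942). The wild-type arrays alone spanned more than all 5 transgenic arrays.

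Mcm3 read 11.19, 10.54 and 10.31 against 9.99, 10.97, 10.08, 10.88 and 10.56, a difference of -0.18 (SE 0.29). Mcm4 read 12.6, 12.03 and 12.1 against 11.45, 12.45, 11.7, 12.32 and 11.9, a difference of -0.28 (SE 0.25). In both genes Sca1-MALT1 replicates 1 and 3 were the lowest of the 8 arrays, while replicates 2 and 4 lay near wild-type replicate 1.

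Mcm5 read 12.75, 12.12 and 11.95 against 10.95, 12.31, 11.28, 12.73 and 11.95, a difference of -0.43 (SE 0.41). Mcm6 read 12.52, 11.76 and 11.34 against 10.95, 11.88, 11.2, 12.13 and 12, a difference of -0.24 (SE 0.35). Mcm7 read 13.46, 12.72 and 12.65 against 12.17, 13.11, 12.71, 12.89 and 12.5, a difference of -0.27 (SE 0.26). The 6 ring subunits thus had nearly the same arrays at both ends: wild-type replicate 1 was the highest of the 8 in each, and Sca1-MALT1 replicate 1 was the lowest in each but Mcm2, in which wild-type replicate 3 was. Adjusted p-values of the 6 ran from 0.764 to 0.942. A dim probe set of Mcm5 and 1 of the 4 of Mcm7 had a difference above 0. The dimmest probe set of Mcm3 stood at -0.34 with no overlap of the groups (limma unadjusted p = 0.0256, adjusted p over all probe sets 0.437).

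Gins1 and Gins2 encode subunits of the GINS complex, which joins the ring to Cdc45. Gins2 read 9.79, 9.02 and 8.41 in wild type and 7.87, 8.68, 7.65, 9.3 and 8.38 in Sca1-MALT1, a difference of -0.7 (SE 0.42, adjusted p = 0.626), and this was the lowest value among the helicase genes. Gins1 read 9.72, 8.91 and 8.72 against 8.26, 8.78, 8.13, 9.42 and 8.39, a difference of -0.52 (SE 0.33, adjusted p = 0.649). Replicates 1, 3 and 5 of Sca1-MALT1 lay below all wild-type arrays in both genes, and replicates 2 and 4 did not. Mcm10, a scaffold needed to start unwinding, differed by -0.38 and Cdc45 by -0.27. In both, Sca1-MALT1 replicate 4 was the highest of the 8 arrays. A dim probe set of Mcm10, with a mean of 5.33, stood at -0.42 with no overlap of the groups (limma unadjusted p = 0.024, adjusted p over all probe sets 0.434).

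Genes of the replication fork were lower in 10 of 11 cases, with a median of -0.21, and none passed. Prim1, the catalytic subunit of primase, read 11.23, 10.63 and 10.54 in wild type and 10.02, 10.7, 10.4, 10.44 and 10.03 in Sca1-MALT1, so that only replicate 2 reached into the wild-type range. The difference was -0.48 (SE 0.22, adjusted p = 0.501), and its second probe set differed by -0.65 (unadjusted p = 0.0384) with no overlap of the groups. Rpa2, a subunit of the protein that coats single-stranded DNA, read 10.89, 10.64 and 10.45 against 10.19, 10.51, 10.26, 10.48 and 10.38. Its standard error was the smallest among the members, and its difference was -0.29 (SE 0.14, adjusted p = 0.510).

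Rfc4, a subunit of the clamp loader, read 10.15, 9.21 and 9.18 against 8.64, 9.42, 8.67, 9.34 and 8.6, a difference of -0.58 (SE 0.3, adjusted p = 0.555). Pold1, the catalytic subunit of polymerase delta, read 11.52, 10.27 and 10.57 against 9.74, 10.8, 9.66, 10.54 and 10.15, a difference of -0.61 (SE 0.35, adjusted p = 0.602). Pola1, the catalytic subunit of polymerase alpha, read 9.31, 8.95 and 8.14 against 7.65, 8.52, 8.19, 8.95 and 8.63, a difference of -0.41 (SE 0.34, adjusted p = 0.741). In all 3 the highest array was wild-type replicate 1, and the groups overlapped.

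Pcna, the sliding clamp, read 13.33, 13.19 and 13.02 in wild type and 12.69, 13.46, 13.24, 13.05 and 13.2 in Sca1-MALT1. The difference was -0.054 (SE 0.18, adjusted p = 0.945), with an interval from -0.46 to 0.35. The other fork genes lay between -0.21 for Pole, the catalytic subunit of polymerase epsilon, and 0.072 for Lig1, the ligase that joins Okazaki fragments. Between these were Rfc5 at -0.2, the fork protection gene Tipin at -0.13 and Fen1, a flap nuclease, at -0.09, whose dimmer probe set differed by 0.45.

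Nucleotide supply genes had a median of -0.16 over 4 members. Rrm2, the regulated subunit of ribonucleotide reductase, read 12.23, 11.98 and 12.33 in wild type and 11.61, 11.69, 12.94, 12.84 and 12.25 in Sca1-MALT1, a difference of 0.089 (SE 0.33, adjusted p = 0.953). Its order of arrays was not that of the ring subunits: Sca1-MALT1 replicates 3 and 4 were the highest of all 8, and replicates 1 and 2 were the lowest. Dimmer probe sets of Rrm2 differed by 0.44 (SE 0.46) and 0.45 (SE 0.51). Rrm1, the large subunit, differed by -0.068 and Dut, which keeps uracil out of DNA, by -0.25. Tyms, the thymidylate synthase, read 7.05, 4.6 and 5.72 against 5.34, 5.95, 6.04, 5.24 and 4.96, with a mean of 5.61, under the medians of the arrays. All 4 of its probe sets were that dim, and its difference of -0.28 had the largest standard error of the members, 0.51.

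Among genes that rebuild chromatin, Uhrf1 stood furthest from 0 of all members. It guides the maintenance DNA methyltransferase to newly copied DNA, and it read 11.24, 10.36 and 10.84 in wild type against 8.63, 9.99, 9.7, 10.93 and 9.65 in Sca1-MALT1. Replicates 1, 2, 3 and 5 were below all wild-type arrays, and replicate 4 was above 2 of the 3. The difference was -1.03 (SE 0.45, interval -2.07 to 0.0025, unadjusted p = 0.0504, adjusted p = 0.491), and its second probe set differed by -0.5. Chaf1b, a subunit of the same chaperone as Chaf1a, differed by -0.028 and Slbp, which binds the stem-loop of histone messages, by 0.12.

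Ccne1 was the member with the lowest p. It encodes cyclin E1, which drives Cdk2 at the entry into S phase. It read 9.91, 9.61 and 9.92 in wild type and 10.6, 9.92, 10.36, 10.31 and 10.52 in Sca1-MALT1. All 5 transgenic arrays were above all wild-type arrays, replicate 2 by less than the printed digits. The difference was 0.53 (SE 0.17, 1.44-fold, unadjusted p = 0.0129), and it did not pass over all genes (adjusted p = 0.361) and gave an exact two-sided permutation p = 0.0536. Its second probe set differed by 0.67 (unadjusted p = 0.00532, limma adjusted p over all probe sets 0.336). Ccne2, the second cyclin E gene, differed by -0.23 (SE 0.38), and the 2 highest of its 5 transgenic arrays were replicates 3 and 4. E2f1, a leading activator of the S phase genes, read 8.43, 8.26 and 8.09 against 7.97, 8.36, 7.95, 9.2 and 7.91, a difference of 0.017 (SE 0.3, adjusted p = 0.992). Replicate 4 was the highest of the 8 arrays, and without it the difference of E2f1 was -0.21.

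Of all 76 probe sets, 57 were lower and 19 higher in Sca1-MALT1. An unadjusted p under 0.05 was found for 7, 4 lower and 3 higher, which is 9.21% against 9.82% of all named probe sets. None passed the adjusted threshold. Of 27 members with several probe sets, 8 had probe sets of opposite sign: E2f1, Fen1, Gins1, Mcm5, Mcm7, Rrm1, Slbp and Tyms.

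The members varied strongly from array to array within each genotype. The mean log2 signal of the 34 was 10.75, 10.12 and 10.06 in wild-type replicates 1 to 3 and 9.63, 10.28, 9.95, 10.51 and 10.03 in Sca1-MALT1 replicates 1 to 5. Wild-type replicate 1 held the highest value of the 8 arrays for 22 of 34 members, and Sca1-MALT1 replicate 1 the lowest for 19. Sca1-MALT1 replicate 4 was the highest of the 8 for 6 members and the highest of its group for 16. The group means of these were 10.31 ± 0.38 (SD, n = 3) for wild type against 10.08 ± 0.33 (SD, n = 5) for Sca1-MALT1, and they lay closer together than their SDs.

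**Figure D2:**
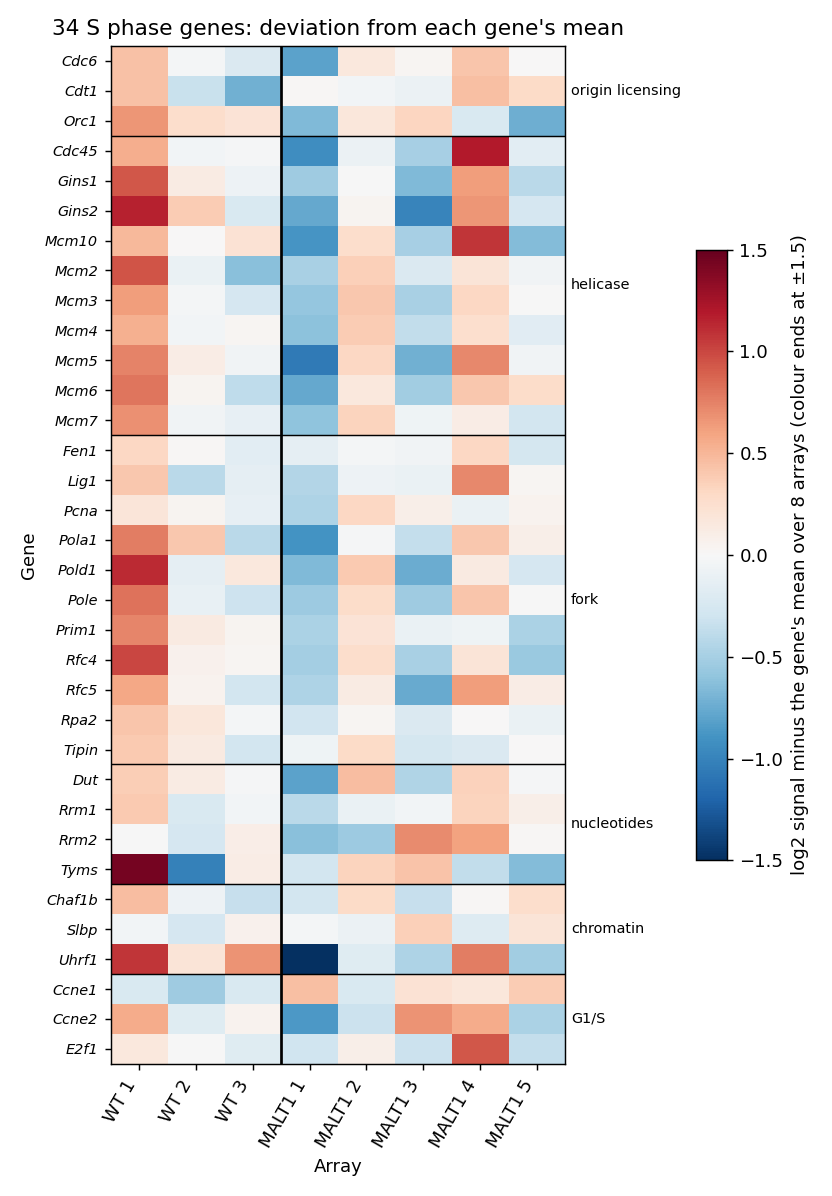
Each row is 1 of 34 S phase genes and each column 1 array, 3 wild type (WT) to the left of the thick line and 5 Sca1-MALT1 to the right; colour is the log2 signal minus that gene's mean over the 8 arrays. Wild-type replicate 1 is red in nearly every row, Sca1-MALT1 replicate 1 is blue in most, and replicate 4 is red for 28 of the 34, while Ccne1 is blue in wild-type replicate 1 and red in Sca1-MALT1 replicate 1.

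G2 and mitosis genes, a list of 36 of which 35 were measured, followed another order of arrays. Their mean log2 signal was 9.92, 9.51 and 9.89 in wild type and 9.47, 9.22, 10.22, 10.66 and 9.52 in Sca1-MALT1. Each of the 35 had its highest value in Sca1-MALT1 replicate 3 or 4, 28 of them in replicate 4, and none in wild-type replicate 1. Replicates 2 and 3 of Sca1-MALT1 set the lists apart most plainly. Between these arrays, 27 of 34 S phase genes read higher in replicate 2, while 35 of 35 mitosis genes read higher in replicate 3. The pair was picked for this contrast, and the same count over all genes is not given here. With 1 sample each, this describes those samples and has no test. Probe sets of different genes have no common scale, so the gap between the lists in 1 array has no meaning of its own, only its change from array to array.

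**Figure D3:**
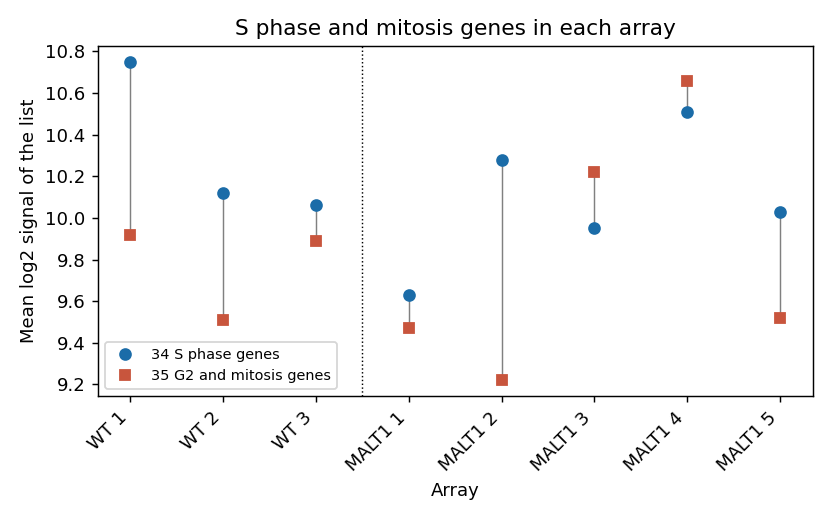
Mean log2 signal of 34 S phase genes (circles) and 35 G2 and mitosis genes (squares) in each of 8 arrays, 3 wild type (WT) and 5 Sca1-MALT1; lines join the values of 1 array. From Sca1-MALT1 replicate 2 to replicate 3 the S phase mean goes from 10.28 to 9.95 while the mitosis mean goes from 9.22 to 10.22; the 2 lists have no common scale.

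Between the genotypes, 21 mitosis genes were higher and 14 lower (median 0.053). By limma 0 had an adjusted and 0 an unadjusted p under 0.05. Mki67, the usual marker of cycling cells, differed by 0.16 (SE 0.37, adjusted p = 0.916), Top2a, which untangles sister DNA, by -0.33 and Cdk1, the mitotic kinase, by 0.076. Kif11, a spindle motor, stood at 0.64, Bub1b, a spindle checkpoint kinase, at -0.47 and Ckap2, a spindle protein, at 0.3 (limma adjusted p = 0.677, 0.767 and 0.775). The difference between the lists was not tested.

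The other 119 measured genes of the pathway, in 7 lists, did not pass either. By direction, 36 were higher and 83 lower (median -0.15), and 12 had an unadjusted p under 0.05, 11 lower and 1 higher. That is 10.1%, beside 10.2% of all genes in either direction, so the total is at the background. The split by direction was uneven: 11 of the 119 were lower and 1 was higher, while all genes had 4.49% lower and 5.69% higher. The mean log2 signal of the 119 was 10.09 in wild-type replicate 1, against 9.78 and 9.65 in the other wild-type arrays. In Sca1-MALT1 it was 9.44 to 9.89. The split, and the part of wild-type replicate 1 in it, was not tested. Other fork genes had a median of -0.23, with 20 of 25 lower. They included Rpa3, a subunit of the single-strand binding protein, at -0.43 (SE 0.14, adjusted p = 0.360) with no overlap of the groups. Pole4, an accessory subunit of polymerase epsilon, and Rfc3, of the clamp loader, each stood at -0.65. Other origin genes had a median of -0.063 (13 of 19 lower), with Orc6 at -0.64, the kinase Cdc7 at -0.39 and Gmnn, which holds Cdt1 back, at -0.33.

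Other nucleotide supply genes were lower in 15 of 18 cases, with a median of -0.14. Dctd, a deaminase that makes dUMP, stood at -1.08 (SE 0.53). Dctpp1, which clears unwanted nucleotides, stood at -0.95 (SE 0.38) and Umps, of pyrimidine synthesis, at -0.89 (SE 0.36). Other chromatin genes were lower in 10 of 13 cases with a median of -0.2. Rbbp7, a histone-binding protein, stood at -0.28 with no overlap of the groups, the helicase Hells at -1.06 (SE 0.49) and Supt16 at -0.53 (SE 0.34). Checkpoint genes had a median of 0.039, with the kinases Wee1 at -0.45 and Chek1 at -1.11, and Etaa1 at 0.24. Chek1 had an SE of 0.54 (limma adjusted p = 0.535), and without wild-type replicate 1 its difference was -0.54.

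Of the genes that control entry into S phase, 15 of 24 were lower, with a median of -0.14. Skp2, the ubiquitin ligase subunit that targets the inhibitor p27, had the lowest p of all pathway genes. The wild-type arrays averaged 9.43 ± 0.22 (SD, n = 3) and those of Sca1-MALT1 8.48 ± 0.29 (SD, n = 5), with no overlap. That is a difference of -0.95 (SE 0.18, limma adjusted p = 0.18). E2f4, a repressor of the family, stood at 0.37, Cks1b, a partner of Skp2, at -0.36 and Ccna2, the cyclin of S phase and G2, at 0.16. The 7 inhibitors of cyclin-dependent kinases had a median of -0.053 and none passed. Cdkn2c stood at 0.58, Cdkn1a at -0.36, Cdkn1b, which encodes p27, at 0.17 and Cdkn1c, high in resting stem cells, at -0.45.

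A pair of arrays, Sca1-MALT1 replicates 2 and 4, had log2 Xist signals of 13.09 and 12.46, against 6.2 to 6.58 in the other 6. Xist is transcribed from the silenced X chromosome of female cells, and the labels give no sex. Those arrays had the highest S phase means of their group, 10.28 and 10.51, so leaving them out by itself lowers the Sca1-MALT1 side. Wild-type replicate 1, with a mean of 10.75, stays in, and the downward count rested on it. The shares that follow are therefore partly set by the choice of arrays and are no separate support for a lower level. With the 6 Xist-low arrays alone, 3 of each genotype, 30 of 34 members were lower in Sca1-MALT1 against 46.6% of all genes, and the median was -0.48. By limma 0 members had an adjusted p under 0.05, against 0.324% of all genes. At an unadjusted p under 0.05, 12 members were lower (35.3%, against 5.85% of all genes) and 1, Ccne1, was higher, where 13.9% of all genes were counted in either direction. The groups did not overlap in 12 members (35.3%, against 20.1% of all genes). Of these, 11 were lower (32.4%, against 7.96% of all genes) and 1 was higher (2.94%, against 12.2%). The lowest p-values were those of Mcm10 at -0.92 (adjusted p = 0.117), Ccne1 at 0.68 (adjusted p = 0.139) and Uhrf1 at -1.49 (adjusted p = 0.163). This comparison was added after the values were seen, and all Xist-high arrays were Sca1-MALT1, so a sex difference within that genotype and the spread of its samples cannot be told apart.

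Marker lists for 10 cell types that such a sort could hold were read in the same arrays. Pro-B and pre-B cell markers were lower in Sca1-MALT1 (10 of 11 genes, 4 past the threshold), with list means of 9.78 to 10.72 in wild type and 7.39 to 8.2 in Sca1-MALT1. Igll1 and Vpreb1, of the surrogate light chain, differed by -3.92 and -5.55 (limma adjusted p = 0.00228 and 0.00596). Plasma cell markers were higher in 11 of 11 cases, 1 past the threshold, with means of 10 to 10.08 against 11.59 to 13.19. Jchain, which joins secreted antibody, rose by 2.58 (limma adjusted p = 0.0163), while Xbp1, a regulator of secretion, stood at 1.32 (limma adjusted p = 0.109).

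The arrays at the ends of some lists were also those at the ends of the S phase genes. Sca1-MALT1 replicate 1, the array with the lowest S phase mean, had the lowest mean of stem and progenitor markers, 7.51 against 9.2 to 10.63 in wild type, and the highest of plasma cell markers. Stem and progenitor markers were lower in 10 of 11 cases with none past the threshold, among them Flt3 at -1.59 and Hlf at -1.33. Kit and Cd34, both on this marker list, were added to the named genes as a check of the label after their values were seen. Kit was 9.24 to 11.06 in wild type and 8.43 to 10.65 in Sca1-MALT1. Cd34 was 8.9 to 12 in wild type and 6.72 to 9.8 in Sca1-MALT1, and it was dimmest in replicates 1 (6.72) and 3 (7.44) of that group. Wild-type replicate 1, with the highest S phase mean, also had the highest stem and progenitor mean. Other arrays broke this parallel. Sca1-MALT1 replicate 4 had the highest S phase mean of its group, 10.51, but a stem and progenitor mean of 8.24. Replicate 5 had the group's highest stem and progenitor mean, 10.16, with an S phase mean of 10.03. Sca1-MALT1 replicate 4, high in S phase and in mitosis genes, had the highest neutrophil mean, 13.8 against 11.65 to 12.36 in wild type. The neutrophil list, which includes genes of neutrophil precursors, held 9 of 12 lower genes and none past the threshold, with S100a9 at -1.3 and S100a8 at -0.81. In wild type S100a9 averaged 14.29 and S100a8 14.74, so neutrophil transcripts were bright in the control samples of this sort too. The higher genes were Elane at 1.26, Ctsg at 0.79 and Prtn3 at 0.79. These, Mpo and Lcn2 had their highest value of all arrays in Sca1-MALT1 replicate 4. The rest of the list, S100a8 and S100a9 among them, was highest in wild-type replicate 3.

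Erythroid markers were highest in Sca1-MALT1 replicates 3 and 4, at 11.27 and 11.02 against 9.87 to 10.15 in wild type, the same arrays that were highest in mitosis genes. They were higher in 9 of 10 cases with none past the threshold, with Car1 at 2.45 and Gata1 at 0.94. Car1 did not follow that order of arrays. It was highest in Sca1-MALT1 replicate 2 (12.18) and lowest of that group in replicates 4 (9.96) and 3 (10.26). T cell markers were lowest in replicate 4, at 8.43 against 8.64 to 8.91 in wild type and 9.46 to 9.82 in the other 4 transgenic arrays (10 of 11 higher, none past the threshold; Zap70 at 0.8, Cd28 at 1.69). The part of these cell types in the values of the S phase genes was not tested. The remaining lists had medians of 0.85 for NK cells (5 of 8 genes higher; Ccl5 at 1.93, Gzma at -2.76), -0.44 for monocytes and macrophages (8 of 10 genes lower; Ly86 at -1.13, Csf1r at -1.69), -0.35 for plasmacytoid dendritic cells (6 of 7 genes lower; Tlr7 at -0.77, Pacsin1 at 0.62) and -0.27 for stroma and endothelium (6 higher and 6 lower; Dcn at 1.33, Emcn at -1.19), with none past the threshold.

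**Figure D4:**
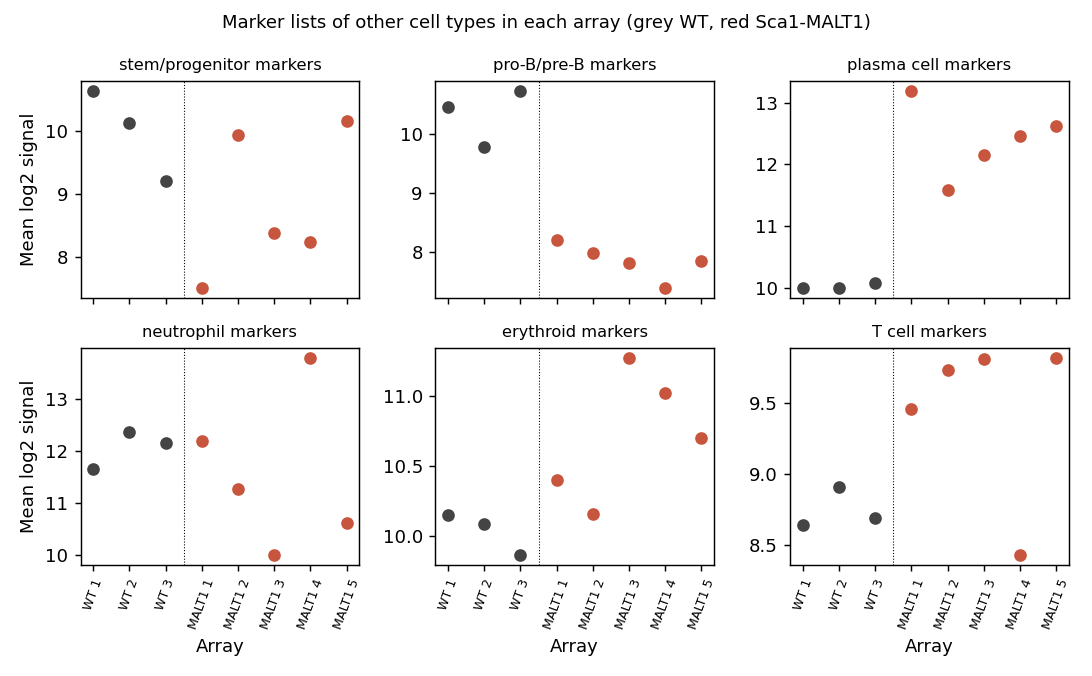
Mean log2 signal of marker lists for 6 cell types in each of 8 arrays, wild type (WT) in grey and Sca1-MALT1 in red; each panel has its own vertical scale. Pro-B and pre-B markers are lower and plasma cell markers higher in all 5 Sca1-MALT1 arrays, while stem and progenitor markers range from 7.51 to 10.16 among them.

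The arrays correlated at r between 0.956 and 0.983 over all genes, and their medians ran from 6.4 to 6.48. For Gapdh, the 3′ control probe set minus the 5′ one, a measure of RNA quality, was 2.7 to 2.92 in wild type and 2.25 to 3.2 in Sca1-MALT1, lowest in replicate 4 and highest in replicate 5. For actin the same measure was 2.14 in wild-type replicate 1, on which the downward count of the members rests, against 1.64 and 1.45 in the other wild-type arrays. By Gapdh that array was the lowest of the wild type, at 2.7, so the controls ranked it differently. In Sca1-MALT1 the actin measure was 2.49 in replicate 5 and 1.25 to 1.53 in the other 4. Replicate 5, highest of its group by both controls, had an S phase mean of 10.03, within a group range of 9.63 to 10.51. The part of RNA quality in the values of the S phase genes was not tested. The number of arrays limits the precision. Sca1 itself, the gene Ly6a, was not analysed here.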

How the data were processed

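Log2 signals per probe set came from the authors' deposited value table of the 8 arrays. Per the submitters' processing notes they were made by RMA, which corrects background, equalises the arrays by quantiles and summarises probes; no version is given in the sources used here. Values were used as they stand. The table's 45101 probe sets comprised 64 controls, 34945 that name a single gene, 932 that name several genes, and 9160 without a name here. Entrez identifiers updated the symbols of 18031 of 18193 genes through RefSeq's GRCm38.p6 table, and the brightest probe set on average stood for a gene.

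Genotypes were compared with limma 3.58.1 in R 4.3.3 over all 18193 genes, two-sided, with Benjamini-Hochberg adjustment, a threshold of 0.05 and 95% intervals. The code was tested on simulated data. Exact permutation tests used the 56 splits of the arrays, whose smallest p is 0.0179.

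The members and lists were chosen with earlier results of these data known. Per-array values were given for the 12 members with the lowest p and for Mcm2 to Mcm7, Cdc6, Cdt1, Pcna, Rrm2, Tyms, E2f1 and Ccne1, and elsewhere up to 3 genes per pathway list, up to 2 per cell type list (Kit and Cd34 were added to check the label), and Mki67, Top2a, Ccna2, Cdk1, Cdkn1a, Cdkn1b and Cdkn1c. Alternatives covered normalization, centring, dim genes, probe sets, variance model, array weights, thresholds, a replicate block, an Xist term, the Xist-low arrays and leaving out each array.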

Additional observations from a re-analysis of the deposited data

Results flagged for a closer look

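Among the 63 genes checked in the 5 Sca1-MALT1 arrays, 2 had an array far from the others by Dixon's test at the 95% level, which marks about 1 in 20 groups by chance. Bub1b, a spindle checkpoint kinase, read 11.09 in replicate 4, against 9.32 to 9.41 in the other 4. Orc6, a subunit of the origin recognition complex, read 8.19 in replicate 1, against 8.95 to 9.21 in the other 4.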

How the results depend on the processing

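By limma 0 members had an adjusted p under 0.05 under all alternatives run, while 16 genes of the whole array had one in the comparison as reported. The median difference of -0.23 ran from -0.36 to 0.019 when 1 array was left out, and it turned only without wild-type replicate 1, when 12 members changed sign; the cause was not tested. Genes called numbered 8 at an adjusted p of 0.01, 38 at 0.1, 28 with array weights, 29 with an Xist term, 59 in the Xist-low arrays alone (chosen after seeing the data) and 8 to 38 with 1 array left out. Members with an unadjusted p under 0.05 numbered 1, and 2 after quantile normalization, with a filter on dim genes, with the mean of probe sets and with trend and robust variance, 3 with array weights, 13 with the Xist term and in the Xist-low arrays, and 1 to 6 with 1 array left out. Members without overlap numbered 0 after quantile normalization, 12 in the Xist-low arrays and 1 to 3 with 1 array left out.

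The replicate numbers did not pair the samples: deviations of same-numbered samples correlated at -0.217, -0.038 and 0.006. With the replicate block the median was -0.34, 0 genes were called and 3 members had an unadjusted p under 0.05, and Cdk1 (-0.15), E2f1 (-0.17), Lig1 (-0.16) and Rrm2 (-0.093) changed sign.

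Of 83 named genes (Kit and Cd34 not among them), 21 changed sign under at least 1 alternative, 16 of them members, and none of these had passed. With the mean of probe sets these were Cdkn1b (-0.064), E2f1 (-0.094), Etaa1 (-0.036), Fen1 (0.18), Rrm1 (0.009) and Slbp (-0.023). Array weights turned E2f1 (-0.074) and Tyms (0.18). The Xist term and the Xist-low arrays turned E2f1 (-0.32) and Lig1 (-0.13). With 1 array left out, the difference ran from -0.02 to 0.31 for Ccna2, -0.25 to 0.085 for Cdc6, -0.11 to 0.29 for Cdk1, -0.21 to 0.2 for Chaf1b, -0.21 to 0.11 for E2f1, -0.19 to 0.038 for Fen1, -0.11 to 0.3 for Lig1, -0.46 to 0.33 for Mcm2 and -0.37 to 0.072 for Mcm3. It ran from -0.51 to 0.083 for Mcm6, -0.059 to 0.34 for Mki67, -0.14 to 0.054 for Pcna, -0.43 to 0.13 for Pole, -0.39 to 0.036 for Rfc5, -0.2 to 0.11 for Rrm1, -0.08 to 0.25 for Rrm2, -0.31 to 0.019 for Tipin and -0.88 to 0.35 for Tyms.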
